A study of Homo sapiens with 10 samples.

Results

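The FOS family comprises 4 genes, FOS, FOSB, FOSL1 (the gene of FRA1) and FOSL2 (the gene of FRA2). The members were taken by name, with Ensembl identifiers matched to symbols, and are 4 of the 20327 genes listed for each library. Their RNA was measured in hTERT RPE-1, a wild-type human line immortalised with telomerase and labelled as retinal pigment epithelium, by sequencing of polyadenylated RNA. All cells had spent 48 h in medium with 0.1% fetal bovine serum, so the controls were serum-starved as well. One experiment set merbarone (200 µM, 30 min; 3 libraries) against the vehicle DMSO for 30 min (3 libraries), and the other set merbarone (200 µM, 2 h) against untreated cells that received no vehicle (2 libraries each). Merbarone is a catalytic inhibitor of DNA topoisomerase II, the enzyme that passes DNA strands through one another and relieves supercoiling. The series is titled as a study of how supercoiling controls the pausing of RNA polymerase II near promoters. The line is a single culture-adapted one, and the labels do not say whether replicates were separate cultures, so p-values measure only the spread between these libraries.

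FOS proteins cannot bind DNA alone. They pair through a leucine zipper with a JUN protein to form AP-1, a transcription factor that binds the sequence TGACTCA. FOS and FOSB are textbook immediate-early genes: growth factors, serum or stress turn them on through factors already present in the cell, and their mRNA is lost again quickly. FOSL1 and FOSL2 lack the carboxy-terminal activation domain of FOS and FOSB and are known as later and more lasting members. In starved epithelial or fibroblast cultures FOS is usually nearly silent, which makes it a common readout of a fresh transcriptional response.

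The promoters just upstream of the start site are shown for the members that had an entry. FOS and FOSB, both above their controls after merbarone, carried the same pair of short motifs there. FOSL2 carried 1 of them. Whether these motifs bear on the merbarone effect was not tested. The sequences are the 120 bases before the start (positions -120 to -1, 5′ to 3′ on the gene's own strand) from RefSeq, build GRCh38.p14, at chr14:75278708-75278827 for FOS, chr19:45467876-45467995 for FOSB and chr2:28392738-28392857 for FOSL2, all on the plus strand. Capitals mark TGACGT, the core of the cyclic-AMP response element bound by CREB and ATF factors, and TATAAA, the TATA box. The table held 3 of the 4 members, and FOSL1 had no entry.
FOS promoter: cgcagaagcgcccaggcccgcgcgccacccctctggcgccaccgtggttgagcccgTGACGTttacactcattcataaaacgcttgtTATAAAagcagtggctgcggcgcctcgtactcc
FOSB promoter: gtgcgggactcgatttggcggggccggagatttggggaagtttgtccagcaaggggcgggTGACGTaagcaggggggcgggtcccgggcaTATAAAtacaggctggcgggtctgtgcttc
FOSL2 promoter: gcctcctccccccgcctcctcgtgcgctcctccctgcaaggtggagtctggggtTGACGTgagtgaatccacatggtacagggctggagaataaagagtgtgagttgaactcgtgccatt

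TGACGT began 64 bases before the start in FOS, 60 before it in FOSB and 66 before it in FOSL2. TATAAA began at -33 in FOS and at -30 in FOSB, and these letters were not in the FOSL2 window. Both strands of 35116 promoters of the same length were searched: 7.10% held TGACGT in the 250 bases upstream, 10.7% held TATAAA, and 0.681% held both. Neither the full element TGACGTCA, which contains TGACGT (1.65% of promoters), nor a CArG box, the motif of serum response factor (1.16%), matched in these windows. The windows searched ran from 250 bases before the start to 50 bases after it. Sequence further upstream was not searched, so a site there would be missed. FOSL2 alone of the 3 held the AP-1 sequence TGACTCA, from base 4 to base 10 after the start. That sequence was present in 4.95% of the promoters when the 50 bases after the start were included. A match is a description of letters, and no binding was measured here.

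The 3′ ends were also compared, since repeats of ATTTA in a 3′ untranslated region are the core of AU-rich elements, which mark many immediate-early mRNAs for rapid decay. A stretch of 30 bases with the most copies held 2 in FOS, 1 in FOSB, 1 in FOSL1 and 2 in FOSL2. It is shown for FOS and for FOSB, the 2 members that rose, with ATTTA in capitals (GRCh37, plus strand, chr14:75748762-75748791 and chr19:45977134-45977163).
FOS: gtgtttttaATTTATTTAttaagatggatt
FOSB: tcctgctggagtgATTTAtactgtgaaatg

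The FOS 3′ untranslated region of 806 bases held 5 copies of ATTTA, overlapping copies included. FOSB held 3 in 2167 bases, FOSL1 held 1 in 837 bases and FOSL2 held 9 in 4869 bases. Over the last 800 bases, a window that sets the lengths equal, the copies numbered 5 in FOS, 2 in FOSB, 1 in FOSL1 and 2 in FOSL2. Among 11255 transcripts, 9.54% had at least as many in that window as FOS, and 51.1% at least as many as FOSB or FOSL2.

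The 4 genes share their layout. Each has 4 exons in its canonical transcript, and the third is 108 bases long in all 4 members. In GRCh37, FOS (ENSG00000170345) lies on the plus strand of chromosome 14 from 75745529 to 75748933, FOSB (ENSG00000125740) on the plus strand of chromosome 19 from 45971253 to 45978437, FOSL1 (ENSG00000175592) on the minus strand of chromosome 11 from 65659520 to 65668044, and FOSL2 (ENSG00000075426) on the plus strand of chromosome 2 from 28615315 to 28640184. FOSB lies wholly inside the annotated span of ERCC1, which is on the opposite strand. FOSL2 overlaps the antisense RNA FOSL2-AS1 over 2233 bases and another noncoding RNA over 296 bases, neither of which is listed in the tables.

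Reads per library, as recovered from the deposited values, numbered 26644379 to 38240706 in the 30 min experiment and 11962092 to 13696974 in the 2 h experiment. Levels are in RPKM, reads scaled to the library total and divided by the gene length in kilobases. The length behind these values is close to the whole gene, introns included: 3457 bases for FOS, 7185 for FOSB, 8525 for FOSL1 and 24865 for FOSL2. Of 10 marker genes of retinal pigment epithelium, 3 reached 1 RPKM in any library (BEST1, PMEL and OTX2), and the defining gene RPE65 reached at most 0.0656 RPKM. Of 5 epithelial markers, the keratin genes KRT7, KRT8 and KRT18 exceeded 1 RPKM in every library, while EPCAM and CDH1 were at or near 0. The 4 mesenchymal markers, VIM among them, all exceeded 1 RPKM. The summed epithelial markers came to 17.7 to 22.7 RPKM in DMSO, 17.5 to 26.1 after 30 min of merbarone, 64.8 to 72.6 in untreated cells and 73.3 to 79.2 after 2 h of merbarone. The summed pigment epithelium markers came to 9.20 to 11.7, 8.98 to 11.8, 28.4 to 29.3 and 25.5 to 29.2 RPKM in the same order. Within that sum BEST1 had means of 2.58, 2.48, 18.8 and 18.5 RPKM, so its gap between the experiments rested mostly on 1 gene. Both sums thus separated the experiments, controls included. Whether reads of a gene on the opposite strand add to BEST1 or the other markers was not tested. In RNA from whole cultures, fewer cells expressing a gene and less RNA per cell cannot be told apart.

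FOS, the founding member of the family, was nearly silent in starved cells and high after 30 min of merbarone. In DMSO it measured 0.489, 0.839 and 1.65 RPKM in replicates 1, 2 and 3, from 45, 89 and 218 reads. After 30 min of merbarone it measured 62.1, 48.7 and 38.9 RPKM, from 7229, 6308 and 4719 reads. Every treated library lay above every control library, as for 0.877% of the genes tested, and the lowest treated value was 23.6 times the highest control value. The replicate with the lowest control had the highest treated value, so that the ratio within same-numbered libraries was 127 in replicate 1, 58.0 in replicate 2 and 23.6 in replicate 3. The means were 0.992 ± 0.595 and 49.9 ± 11.6 RPKM (SD, n = 3), a 50.3-fold difference.

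**Figure D1:**
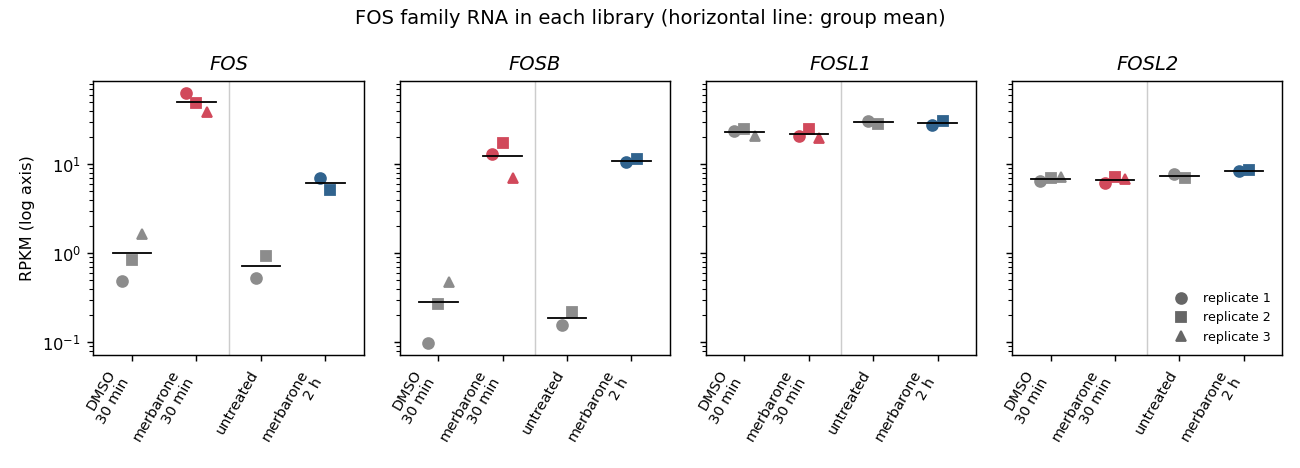
RPKM (log axis) of the 4 FOS family genes in each of the 10 libraries, with a panel per gene, symbol shapes for replicate numbers and a line at each group mean; a vertical line separates the 30 min from the 2 h experiment. FOS and FOSB lie far above their controls in every merbarone library, FOS most of all at 30 min (38.9 to 62.1 RPKM), while FOSL1 and FOSL2 stay within a narrow band.

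On the scale of the test, log2(RPKM + 1), which understates the change of a gene that starts near 0, FOS rose by 4.69 ± 0.25 (SE; 95% interval 4.09 to 5.29). Its adjusted p in limma, with Benjamini-Hochberg adjustment over 6500 genes, was 0.00549. FOS was the single member and the single gene called, 0.0154% of the genes tested. Its control mean was below 1 RPKM, so FOS passed the filter on low RPKM only through its treated libraries. The call was lost without DMSO replicate 2 (limma adjusted p 0.0734), without merbarone replicate 2 (0.0906) and without the filter on low RPKM (0.0669), with the size between 4.50 and 4.92 whichever library was left out.

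FOSB, whose protein activates transcription much as FOS does, followed FOS at a lower level. It measured 0.0992, 0.272 and 0.477 RPKM in the 3 DMSO libraries, from 19, 60 and 131 reads. After 30 min of merbarone it measured 12.9, 17.3 and 6.94 RPKM, from 3129, 4671 and 1748 reads. The groups did not overlap, as for 0.877% of the genes tested in the direction of a higher level, and as for FOS the third replicate showed the smallest contrast. The ratio within same-numbered libraries was 130.3, 63.7 and 14.6. The means were 0.283 ± 0.189 and 12.4 ± 5.22 RPKM (SD, n = 3), a 43.9-fold difference.

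The FOSB log2 fold change of 3.31 ± 0.30 (SE; 95% interval 2.59 to 4.04) was the second largest of all genes tested, and its limma p of 2.32e-05 the second smallest. It did not pass after adjustment (adjusted p 0.0755). With the replicate number as a block, since same-numbered libraries deviated together in this experiment, limma gave an adjusted p of 0.0188 and FOSB passed, among 0.123% of the genes tested. It also passed without merbarone replicate 3, the lowest treated library (adjusted p 0.0153). Over the 16 alternatives it was called in 7, with adjusted p-values from 5.96e-04 to 1.00.

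FOSL1, the most abundant member in starved cells, did not move beyond its replicate spread at 30 min. It measured 23.3, 24.7 and 20.6 RPKM in DMSO and 20.7, 24.8 and 19.8 RPKM after merbarone. The groups overlapped, with 1 treated value just above and 1 just below the range of the controls. The log2 fold change was -0.07 ± 0.11 (SE), with a 95% interval from -0.33 to 0.19, and the limma adjusted p was 1.00.

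FOSL2, the other later member, measured 6.44, 7.04 and 7.16 RPKM in DMSO and 6.16, 7.09 and 6.78 RPKM after merbarone, and the groups overlapped. The log2 fold change was -0.04 ± 0.07 (SE; 95% interval -0.20 to 0.13; limma adjusted p 1.00). Changes of either gene within these intervals were not detectable with these libraries.

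At 2 h of merbarone FOSB was the member furthest from its control. It measured 0.157 and 0.221 RPKM in untreated cells, from 15 and 19 reads, and 10.6 and 11.3 RPKM in treated cells, from 1043 and 1056 reads. Both treated libraries lay above both controls, as for 22.5% of the genes tested, and the ratios within same-numbered libraries were 67.7 and 51.0. The means were 0.189 ± 0.0456 and 10.9 ± 0.473 RPKM (SD, n = 2). FOSB had the smallest p of the 6620 genes tested, with a log2 fold change of 3.33 ± 0.08 (SE; 95% interval 3.15 to 3.51) and a limma adjusted p of 9.88e-08. It was called in all 14 alternatives, with log2 fold changes from 3.20 to 5.84, the higher values coming from recovered reads or a smaller pseudocount.

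FOS was still above its control at 2 h, at a lower level than at 30 min. It measured 0.521 and 0.919 RPKM in untreated cells, from 24 and 38 reads. After 2 h of merbarone it measured 7.01 and 5.17 RPKM, from 332 and 233 reads. Both treated libraries lay above both controls, as for 22.5% of the genes tested, and the ratios within same-numbered libraries were 13.5 and 5.62. The log2 fold change was 2.04 ± 0.14 (SE; 95% interval 1.72 to 2.36), with a limma adjusted p of 4.27e-05. Only without the filter on low RPKM was the call lost among the 13 alternatives (limma adjusted p 0.0780). With the filter at 5 RPKM, FOS was removed at 2 h and had no test.

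FOS and FOSB were thus 2 of the 4 members called higher at 2 h. In that comparison 13.1% of all genes tested were called, 5.98% of them higher and 7.1% lower as shares of the genes tested.

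FOSL1 measured 30.7 and 28.5 RPKM in untreated cells and 27.7 and 30.2 RPKM after 2 h. The groups overlapped, the log2 fold change was -0.03 ± 0.11 (SE; 95% interval -0.28 to 0.22), and the limma adjusted p was 0.874. FOSL2, which binds the same sites as the other members when paired with JUN proteins, measured 7.66 and 7.04 RPKM untreated and 8.38 and 8.52 RPKM treated. Both treated FOSL2 libraries lay above both controls, as was so for 22.5% of the genes tested, and the mean rose 1.15-fold. That difference did not pass: the log2 fold change was 0.18 ± 0.09 (SE; 95% interval -0.03 to 0.39), with a limma adjusted p of 0.220.

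**Figure D2:**
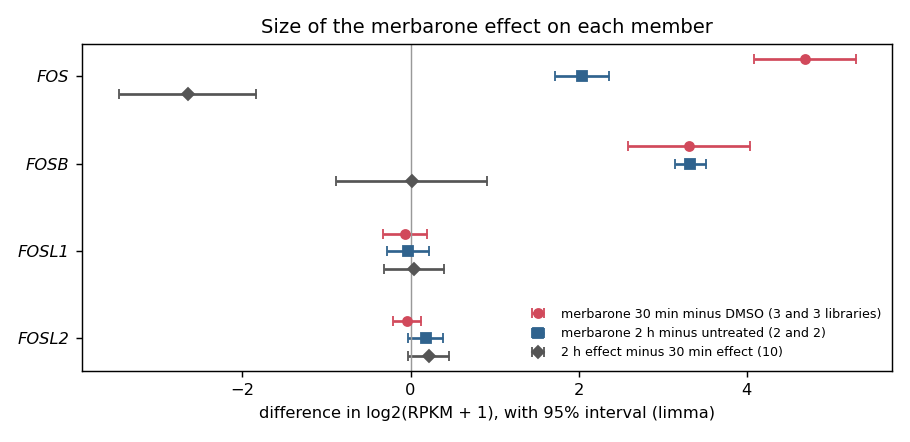
Difference in log2(RPKM + 1) with its 95% interval (limma) for each member: merbarone 30 min minus DMSO (circles), merbarone 2 h minus untreated (squares), and the second difference minus the first (diamonds). FOS has the largest effect at 30 min (4.69) and a lower one at 2 h (2.04), FOSB has nearly equal effects (3.31 and 3.33), and all intervals of FOSL1 and FOSL2 span 0.

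The members differed in how their effects at 30 min and at 2 h compared. In limma on all 10 libraries, the FOS effect at 2 h minus that at 30 min was -2.65 ± 0.36 (SE) on the log2 scale, with a 95% interval from -3.47 to -1.83 and an adjusted p of 0.00731. Of the 6558 genes tested, FOS had the most negative difference. In this contrast 1.63% of the genes were called, 83 with a higher and 24 (0.366%) with a lower effect at 2 h, and 93 and 12 after quantile normalization, where FOS was still among the lower. The FOSB effects differed by 0.01 ± 0.40 (SE; 95% interval -0.88 to 0.91; limma adjusted p 0.993), an interval wide enough to hold a change of nearly 1 on the log2 scale either way. FOSL1 and FOSL2 had differences of 0.04 (95% interval -0.32 to 0.40) and 0.22 (95% interval -0.02 to 0.46), and neither passed in limma (adjusted p 0.937 and 0.363).

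The FOS difference did not pass on recovered reads with limma's voom (adjusted p 0.224), with a pseudocount of 0.1 (0.0654), without untreated replicate 2 (0.0636) or without the second library of 2 h merbarone (0.0599). This contrast sets treatments of different length from different experiments side by side, 1 with a vehicle control and 1 without, and these cannot be told apart. The marker sums that separated the experiments differed less between treated and control libraries within each, and their part in the contrast was not tested.

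The ratio of FOSB to FOS put the same shift within single libraries, where depth cancels. In RPKM it was 0.208, 0.356 and 0.178 after 30 min of merbarone, close to the 0.203, 0.324 and 0.289 of DMSO. After 2 h it was 1.51 and 2.18, against 0.301 and 0.241 in untreated cells. All 8 other libraries lay at or below 0.356, and only the 2 h merbarone libraries had more FOSB than FOS per kilobase.

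Summed over the family, the RNA level per library was 29.9 to 32.9 RPKM in DMSO and 72.5 to 102 RPKM after 30 min of merbarone. In the 2 h experiment it was 36.7 to 39.0 RPKM untreated and 53.7 to 55.2 RPKM treated. FOS made up 1.61% to 5.52% of that sum in DMSO and 49.7% to 60.9% after 30 min of merbarone, and FOSL1 made up 68.9% to 76.9% and 20.4% to 27.3% of it. The level of FOSL1 itself overlapped between these groups, as given above. At 2 h FOS held 9.36% to 13.1%, FOSB 19.7% to 20.4% and FOSL1 51.6% to 54.8%. These shares depend on the gene length used. Per kilobase of summed exons, FOS made up 24.9% to 33.8% after 30 min of merbarone, and FOSL1 47.0% to 54.5%.

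**Figure D3:**
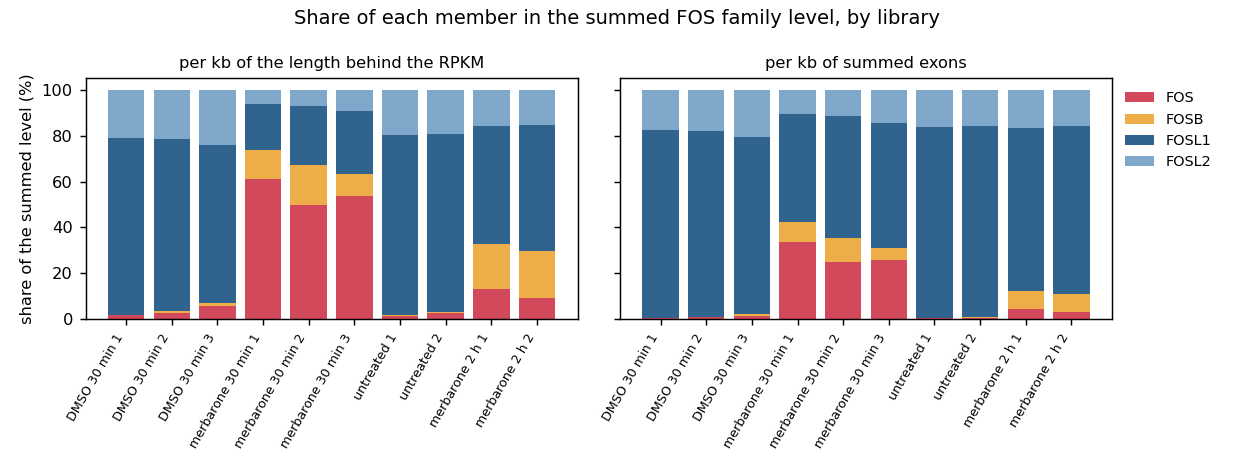
Share (%) of each member in the summed level of the 4 genes, 1 bar per library, per kilobase of the length behind the deposited RPKM (left) and per kilobase of summed exons (right). On the left FOS takes 49.7% to 60.9% after 30 min of merbarone, while on the right FOSL1 remains the largest share in every library.

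The order of the members depended on the length used. Per kilobase of the deposited length, the order in both control groups was FOSL1, FOSL2, FOS, FOSB, with no overlap between neighbours. After 30 min of merbarone it was FOS, FOSL1, FOSB, FOSL2, where FOSB and FOSL2 overlapped. After 2 h it was FOSL1, FOSB, FOSL2, FOS, again with no overlap between neighbours.

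Introns make up most of the FOSL1 and FOSL2 spans, so dividing by summed exon length (3186 bases for FOS, 5553 for FOSB, 1887 for FOSL1, 7162 for FOSL2) raised these 2 most. On that scale, as RPKM with the exon length in place of the deposited length, FOSL1 had a mean of 98.5 after 30 min of merbarone against 54.2 for FOS. FOSL1 was then first in all 4 groups, FOS second after 30 min, and FOSL2 above FOSB after 2 h (29.3 and 14.1). Ratios of 1 gene between libraries do not depend on the length, but log2(RPKM + 1) does, since the added 1 weighs more on a lower RPKM. With 0.1 added in place of 1, the log2 fold changes of FOS were 5.63 at 30 min and 2.94 at 2 h, and those of FOSB 5.06 and 5.26.

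The reads of FOSB also appear under ERCC1, a subunit of a DNA repair endonuclease, named here after its values were seen. ERCC1 was listed with 93.0, 92.4 and 88.9 RPM (reads scaled to the library total, without the gene length) in DMSO and 186, 211 and 131 after 30 min of merbarone. In the 2 h experiment it had 99.0 and 102 untreated and 169 and 178 treated. In limma its log2 fold changes were 0.59 at 30 min, eighth in size among all genes tested, and 0.51 at 2 h, where it was called (adjusted p 0.00270).

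Once the reads listed for FOSB were subtracted, ERCC1 had 92.3, 90.5 and 85.5 RPM in DMSO and 93.3, 86.2 and 80.7 after 30 min, which overlapped. At 2 h it had 97.8 and 100.1 untreated and 92.4 and 97.4 treated, slightly lower after merbarone. The excess in ERCC1 was thus close in size to the reads of FOSB. Whether the counting used strand is not given in the sources used here. In the controls all reads listed for FOSB came to 0.713 to 3.43 RPM, which is the most that ERCC1 transcripts could have added to FOSB there.

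**Figure D4:**
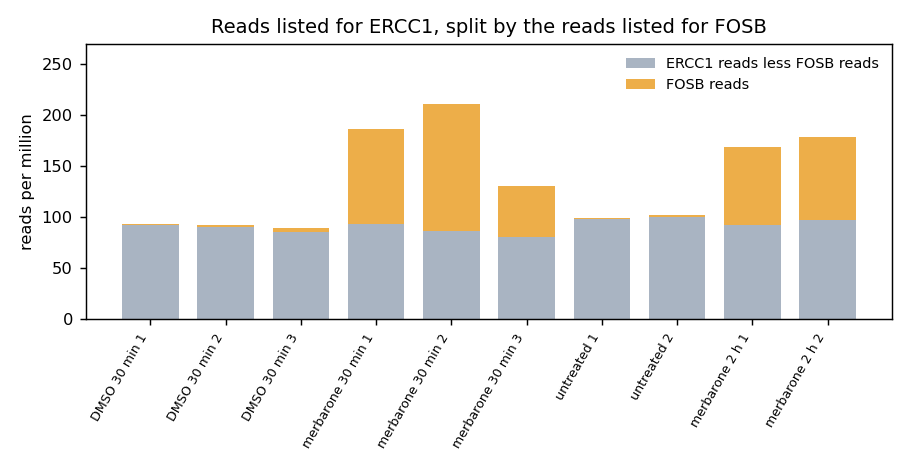
Reads listed for ERCC1 (RPM) in each library, split into the number listed for FOSB (upper part of each bar) and the remainder (lower part). The remainder lies between 80.7 and 100.1 in all 10 libraries, while the upper part is at most 3.43 in controls and at least 49.9 after merbarone.

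The genes most like each member were found by Pearson's r over the 10 libraries, after subtracting the mean of each experiment's own controls from log2(RPKM + 1), among 176 or 177 genes with a range of at least 1. These libraries share their controls and depth, so r is a description with no p. For FOS they were ZFP36, an mRNA decay factor that binds AU-rich elements (r 0.938), FOSB (0.883) and DUSP1, a phosphatase of MAP kinases (0.694). ZFP36 shared with FOS a higher mean at 30 min than at 2 h: it went from 3.21 ± 0.642 to 10.5 ± 3.03 RPKM (SD, n = 3) and from 6.10 ± 0.961 to 8.67 ± 0.839 RPKM (SD, n = 2). For FOSB they were the zinc finger factor EGR1 (0.884), FOS (0.883) and the AP-1 partner JUNB (0.874).

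FOSL2 had a range of only 0.33 on the log2 scale and FOSL1 of 0.31, so their likeness rests on small movements. The genes nearest to FOSL2 were DDIT4, an inhibitor of mTORC1 (r 0.897), the kinase gene PIM1 (0.888) and NFKBIA, which encodes an inhibitor of NF-kB (0.885). Their means were 7.38 and 7.40 RPKM for DDIT4, 3.30 and 3.67 for PIM1, and 6.53 and 6.25 for NFKBIA in DMSO and 30 min of merbarone. In untreated and 2 h merbarone cells they were 28.9 and 235, 5.05 and 17.5, and 7.30 and 22.7. For FOSL1 the nearest were ENSG00000267918 (0.690), the RNA-binding protein gene HNRNPA1 (0.683) and LENG8 (0.652).

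Most of the AP-1 dimer partners tested were called higher at 2 h, and which of them pair with FOS proteins was not examined here. Of a list of 14 AP-1 partners, 7 passed the low-value filter at 30 min and 0 were called in limma without the block (24 of all 6500 genes had an unadjusted p under 0.05). JUNB was called with the block (log2 fold change 1.29, limma adjusted p 0.0188), beside 0.123% of all genes tested. At 2 h 8 were tested, 7 were called higher and 0 lower, beside 5.98% and 7.1% of all genes tested. ATF3, at 0.108 RPKM untreated and 2.69 RPKM treated, passed the low-value filter only through its treated libraries. The list was chosen with earlier results of these data known. JUNB, a relative of JUN, had a log2 fold change of 2.398 (adjusted p 1.14e-04), JUN itself 1.82 (1.88e-05), the stress-induced ATF3 1.73 (1.80e-05) and JUND 0.93 (0.00248), all in limma. JUN went from 36.4 ± 0.645 to 132 ± 7.80 RPKM and JUND from 49.8 ± 7.15 to 95.4 ± 1.66 RPKM (SD, n = 2). The median of the partners tested was 0.76 at 2 h, beside -0.05 over all genes tested. JUNB overlaps HOOK2 on the opposite strand, so its reads are uncertain in the same way as those of FOSB. The other 3 genes called, MAFF, MAFG and MAFK, also overlap another listed gene (PLA2G6, SIRT7 and TMEM184A).

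Factors that turn FOS on, and the kinases of the ERK cascade that act on them, gave 1 call between them without the block. Of 14 regulators of FOS transcription, 0 of the 7 tested were called at 30 min. At 2 h 1 of 6 was called, SRF, the serum response factor, known to bind upstream of FOS, which fell from 12.4 ± 1.06 to 8.96 ± 0.0480 RPKM (SD, n = 2; log2 fold change -0.42, limma adjusted p 0.0266). Without replicate 1 or replicate 2 of 2 h merbarone it did not pass (limma adjusted p 0.187 and 0.178). Of 11 ERK cascade kinases, 0 of 6 were called at either time without the block. With it 1 of the 6 was called lower at 2 h, when 1316 of the 6620 genes tested were called lower. Without the block, a single call among the regulators and kinases tested at 2 h is near the 13.1% of all genes called then. The medians were -0.05 for the regulators and -0.10 for the kinases at 2 h.

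Among 6 factors that bind AU-rich elements such as the one printed for FOS, all were tested. At 30 min 0 were called without the block, and 2 were called with it, beside 0.123% of all genes tested: ZFP36 (log2 fold change 1.43, limma adjusted p 0.00506) and ZFP36L1 (0.44). At 2 h the same 2 were called higher, beside 5.98% of all genes tested: ZFP36L1 by 1.10 (limma adjusted p 2.59e-04), with 38.2 ± 0.139 RPKM untreated and 83.1 ± 0.158 RPKM treated (SD, n = 2), and ZFP36 by 0.45 (adjusted p 0.0380). ZFP36 did not pass without the first library of 2 h merbarone (limma adjusted p 0.278). The median of the 6 was 0.07 at 2 h.

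Of 17 textbook targets of AP-1, 11 were tested at 30 min and 0 were called. At 2 h 12 were tested, and 4 were called higher and 0 lower, beside 5.98% and 7.1% of all genes tested. Among them were HBEGF, a ligand of the EGF receptor (log2 fold change 1.29, limma adjusted p 1.85e-04), the chemokine gene CXCL8 (1.19, adjusted p 0.00249) and VEGFA, the vascular growth factor (1.07, adjusted p 2.17e-04). HBEGF went from 1.15 ± 0.0743 to 4.29 ± 0.965 RPKM and VEGFA from 10.5 ± 0.557 to 23.2 ± 0.653 RPKM (SD, n = 2). CXCL8, at 0.572 RPKM untreated and 2.51 RPKM treated, passed the low-value filter only through its treated libraries. This list too was chosen with earlier results of these data known. The median of the 12 was -0.10, below the -0.05 of all genes tested, and 5 of the 12 had a value above 0. With the block 4 of the 12 were called higher and 2 lower at 2 h, when 813 and 1316 of the 6620 genes tested were.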

How the data were processed

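Each library came with its own table of RPKM values by Ensembl identifier, as deposited by the authors, with no log applied. The submitters' processing notes name Bowtie 1.2.0, edgeR, DESeq2, deepTools 2.4.1 and the builds hg19 and GRCh37, without their roles. The read counter, its use of strand and the annotation are not given in the sources used here. Libraries were made with a stranded mRNA kit from 150 ng of total RNA, per the labels' protocols.

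Whole reads were recovered from the steps of the RPKM values for 17680 genes, 100% of those with any value (tolerance 0.0001 reads), and their sums came to 99.97% to 99.98% of the totals implied. Replicates were compared with each other: none held identical values.

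Tests used limma 3.58.1 (R 4.3.3; lmFit, eBayes with trend) on log2(RPKM + 1) for genes averaging 1 RPKM or more across the libraries fitted, 2-sided, with Benjamini-Hochberg adjustment over all genes tested and a threshold of 0.05. All 4 members passed the filter in each fit. FOS and FOSB did so only through their merbarone libraries. Their means in DMSO and in untreated cells were 0.992 and 0.720 RPKM for FOS, and 0.283 and 0.189 RPKM for FOSB. Each experiment was fitted alone, and the difference between the effects on all 10 libraries. Replicate numbers, which the labels give in the titles, formed the replicate block. In the 30 min experiment the deviations of same-numbered libraries from their group means correlated at 0.925, 0.646 and 0.605, so the numbers were taken to pair the samples. The main fits did not use this pairing. Alternatives were another pseudocount, filter, scaling or prior, the block, all libraries in 1 fit, voom on recovered reads and leaving out each library. The fitting was run on simulated libraries with known changes, a fixed spread between libraries and no pairing. That run checks the code only, since it did not imitate the spread and pairing of the deposited libraries.

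Gene positions, exons and 3′ untranslated regions come from GENCODE release 44 mapped to GRCh37, promoters from RefSeq. Motifs were matched letter by letter. The text names the members, the 3 genes most like each, and from each list at most 4 called genes per comparison by size, of which 1 is not reported here. The members and lists were chosen with earlier results of these data known.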

Additional observations from a re-analysis of the deposited data

Results flagged for a closer look

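The effect of merbarone on FOS differed between the experiments when that difference was itself tested. The log2 fold change at 2 h was 2.04 and that at 30 min was 4.69, a difference of -2.65 (limma, adjusted p 0.00731, range 0.00390 to 0.224 over 19 alternatives). Each of the 3 treated libraries at 30 min and both at 2 h were above their own controls, as for 0.877% and 22.5% of the genes tested. The other 3 members had no such difference past the threshold.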

How the results depend on the processing

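Among the settings tried, the direction of FOS was the same in all 16 fits at 30 min, 13 at 2 h and 19 of the difference, and that of FOSB in all fits at 30 min and 2 h. In the replicate-block fits, FOSB at 30 min was called (log2 fold change 3.31), and the numbers of genes called were 8 at 30 min, 2129 at 2 h (where the 2 pairs correlate at 0.30 and share only a number, with 1 residual degree of freedom) and 1255 for the difference. The block changed no other call of a member.

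FOSB at 30 min was also called with the filter at 5 RPKM (3.31), median scaling (3.32), quantile normalization (3.21), all 10 libraries in 1 fit (3.31) and voom with the block (5.35). With a library left out, FOSB lay between 3.05 and 3.65 and was called in 1 of 6 fits. FOS was lost without a filter at 30 min (4.69) and 2 h (2.04), and lay between 4.50 and 4.92 at 30 min with a library left out. The FOS difference was lost with a pseudocount of 0.1 (-2.69) and with voom (-2.60), and lay between -2.88 and -2.46 with a library left out. Small effects changed sign: FOSL1 at 2 h with quantile normalization (0.0922), FOSB's difference with quantile normalization (-0.0658) and DDIT4 at 30 min with median scaling (0.0019), quantile normalization (0.0054) and voom with the block (0.013), as did HNRNPA1 at 2 h with quantile normalization (0.0489).

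With a library left out, the 30 min ranges were -0.0792 to 0.0115 for FOSL2, -0.40 to 0.48 for ENSG00000267918, -0.46 to 0.0767 for HNRNPA1, -0.39 to 0.37 for LENG8, -0.34 to 0.38 for DDIT4, -0.0221 to 0.28 for PIM1 and -0.18 to 0.0647 for NFKBIA. At 2 h they were -0.0915 to 0.0308 for FOSL1 and -0.31 to 0.15 for HNRNPA1, and for the difference -0.32 to 0.28 for FOSB and -0.0226 to 0.13 for FOSL1.

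The number of genes called at 30 min, 1, became 0 with no filter, 2 with the filter at 5 RPKM, median scaling, quantile normalization or all libraries, 13 with voom and the block, and 0 to 2 with a library left out. At 2 h the 866 became 53, 397, 1886 with voom, 3488 with voom and the block, 69 with a log2 change of at least 1, and 328 to 2464 with a library left out. The 107 of the difference became 361, 36, 66 with voom, 2102 with voom and the block, 45 with a log2 change of at least 1, and 38 to 86. Control levels of FOS and FOSB rest on 15 to 218 reads, and the causes of these changes were not tested.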
